A study of Mus musculus with 10 samples.

Results

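The NF-kB genes described here are the transcription factor subunits Nfkb1, Nfkb2, Rela and Relb, the IkB family genes Nfkbia, Nfkbie, Nfkbiz and Bcl3, and the feedback genes Tnfaip3 and Birc3. They were chosen by gene symbol. A gene was measured where a probe set of the deposited table carried that symbol and no other, and where a gene had several such probe sets the one with the highest mean over all 10 arrays was used. By that rule 9 of the 10 genes were measured, out of 19938 genes in all, each by 1 probe set. Nfkb1 matched no such probe set and is not analysed here.

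The samples were osteoblastic lineage cells (OBCs), bone-forming cells and their precursors, sorted from the bones of 5 control and 5 BA mice of the C57BL/6 strain, with 1 mouse and 1 array per sample. BA mice were labelled Scl-tTA::TRE-BCR/ABL: the Scl promoter drives a transactivator that switches on the BCR/ABL oncogene once doxycycline is removed. The genotype of the control mice is given only as control. Both groups were taken off doxycycline at 5 weeks of age, which lets a myeloproliferative neoplasm develop in BA mice, and their bones were taken 5 to 6 weeks later, at 10 to 11 weeks of age. Cells freed from the bone by collagenase were sorted after staining for CD45, CD51, CD31, Sca-1 and blood lineage markers; the gates are not given in the labels. The Scl promoter is active in blood-forming cells, so the transgene is driven in the blood system and not by a promoter chosen for the sorted cells. RNA came from 500 to 2300 sorted cells per mouse and was amplified. Values are log2 signals from Affymetrix Gene ST 1.0 arrays, and a difference is the BA mean minus the control mean on that scale.

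NF-kB proteins are dimers that wait in the cytoplasm, held there by IkB inhibitors. Signals from tumour necrosis factor, interleukin-1 or microbial products activate a kinase complex that marks IkB for destruction, and the freed dimers then enter the nucleus and switch on inflammatory genes. Among the genes they switch on are their own inhibitors, so the RNA of Nfkbia or Tnfaip3 is commonly read as a trace of recent pathway activity. In bone the pathway is known for its part in forming osteoclasts and in inflammatory bone loss.

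The stretches of DNA just before the start sites of members that hold a match to the kappaB consensus, the sequence NF-kB dimers bind, are printed below because feedback by NF-kB on its own genes is known to run through such sequences. Sequences are from RefSeq, build GRCm38.p6, and run 5′ to 3′ on the gene's strand over the 250 bases before the most upstream start. Capitals mark matches to the kappaB consensus on either strand and to GGACTTTCC, a core of the classical immunoglobulin kappa site.
Nfkb2, chr19:46304487-46304736, plus strand: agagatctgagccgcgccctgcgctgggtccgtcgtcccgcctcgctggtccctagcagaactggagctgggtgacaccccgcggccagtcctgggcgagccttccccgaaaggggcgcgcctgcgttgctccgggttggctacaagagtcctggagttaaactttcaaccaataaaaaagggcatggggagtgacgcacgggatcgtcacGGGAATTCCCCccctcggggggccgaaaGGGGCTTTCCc
Nfkbia, chr12:55492648-55492897, minus strand: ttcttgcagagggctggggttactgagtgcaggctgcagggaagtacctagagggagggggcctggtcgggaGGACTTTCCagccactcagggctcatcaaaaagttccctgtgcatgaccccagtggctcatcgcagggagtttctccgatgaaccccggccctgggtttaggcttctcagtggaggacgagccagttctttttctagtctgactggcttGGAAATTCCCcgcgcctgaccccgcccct
Nfkbie, chr17:45555450-45555699, plus strand: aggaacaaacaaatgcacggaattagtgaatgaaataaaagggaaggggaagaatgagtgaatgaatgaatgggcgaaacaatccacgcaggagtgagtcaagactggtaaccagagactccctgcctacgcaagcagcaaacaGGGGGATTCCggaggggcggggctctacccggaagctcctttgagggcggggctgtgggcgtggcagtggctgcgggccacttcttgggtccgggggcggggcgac
Tnfaip3, chr10:19015411-19015660, minus strand: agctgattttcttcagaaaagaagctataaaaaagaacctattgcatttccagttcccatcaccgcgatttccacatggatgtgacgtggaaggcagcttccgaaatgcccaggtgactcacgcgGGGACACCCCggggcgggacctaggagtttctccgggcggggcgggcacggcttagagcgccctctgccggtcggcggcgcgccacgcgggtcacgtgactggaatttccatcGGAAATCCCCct
Of the 10 genes, 7 were found in the promoter table, with 10 windows that reach from 250 bases before a start to 50 after it. The consensus, of 10 letters and searched on both strands, was found in 7 of these 10 windows, against 4.51% of all 32851 windows of the same 300 bases. By gene it was found in 5 of the 7, against 1388 of all 27025 genes. GGACTTTCC was found in 3 of the 10 windows, from Nfkbia and from the starts of Nfkb2 further downstream that are not printed, against 0.344% of all windows. Matches to the motifs overlap. The 2 downstream windows of Nfkb2 overlap each other and hold the same GGGACTTTCC, a consensus match that contains GGACTTTCC. For both motifs it is counted in both windows. The match of Bcl3 lies after its start. The windows of Rela and Birc3 hold no match, which says only that these letters are not there. A match describes the sequence and is not a measured binding site.

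None of the 9 measured genes differed between BA and control cells past the threshold of 0.05 in limma's test adjusted over all genes, where 1 of 19938 genes (0.00502%) passed. Of the 9, 7 had a higher mean in BA cells and 2 a lower one, with a median difference of 0.29, beside a median of -0.06 and 37.7% of genes with a higher mean over all genes. At an unadjusted p under 0.05 (limma) 1 member, Nfkbiz, was higher, beside 4.13% of all genes, and 1, Nfkbie, was lower, beside 5.27%. The groups overlapped for all 9 genes, while 1.67% of all genes had groups fully apart (0.567% higher and 1.1% lower in BA cells). Differences over all genes varied with level: among the 9962 genes with a mean above the median of all genes (6.15) the median difference was 0.00 and 49.6% were higher. Of the members 7 lay above that level, all 7 with a higher mean in BA cells and a median difference of 0.33, and the 2 members below it, Relb and Nfkbie, were the 2 with a lower mean. The members were listed with results of these data known, so these counts describe them and do not test them.

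**Figure D1:**
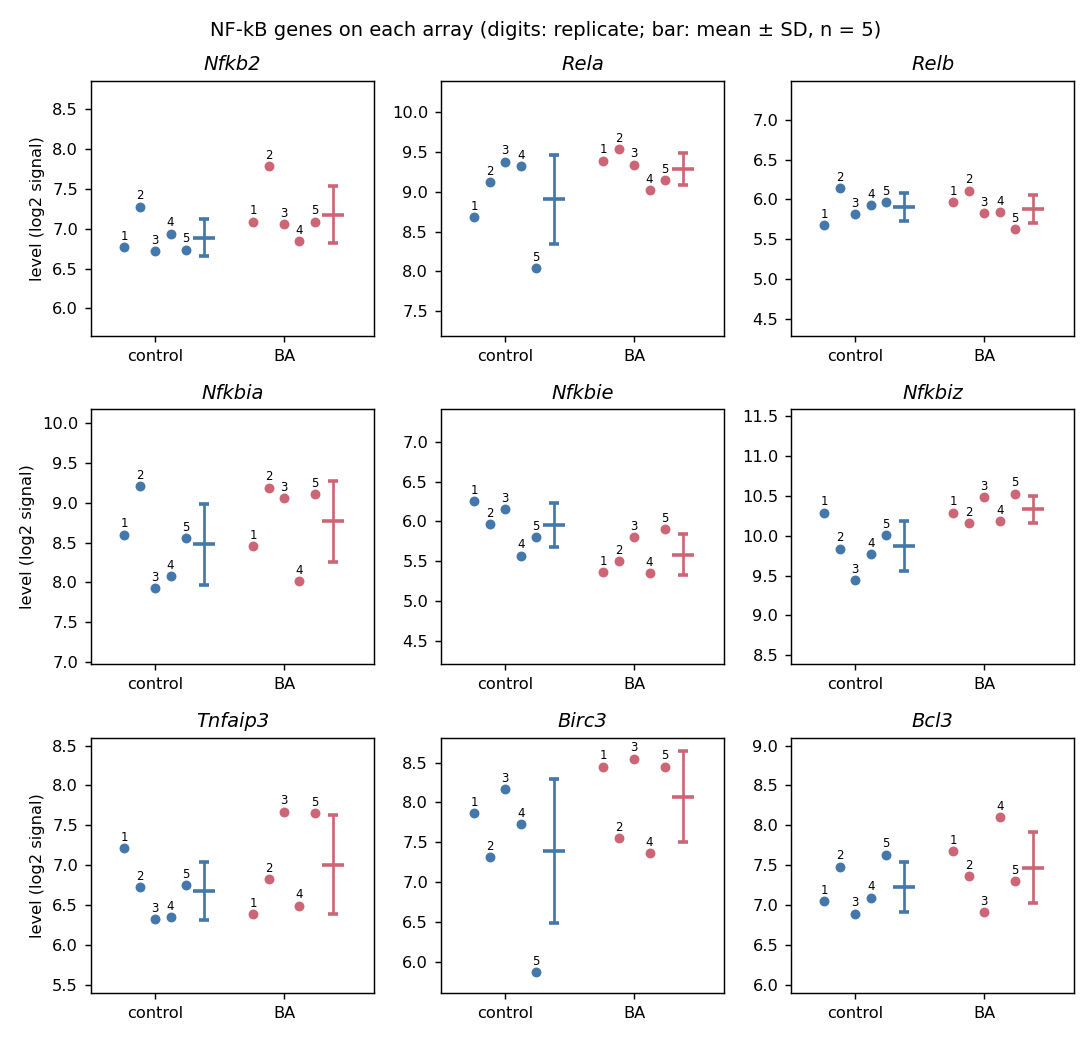
Level (log2 signal, vertical axis) of each of the 9 measured NF-kB genes on each array, with control arrays on the left and BA arrays on the right of each panel. Points are single mice numbered by replicate, bars are the mean ± SD (n = 5), and every panel spans the same number of log2 units. The groups overlap in every panel, and control replicate 5 is lowest for Rela (8.04) and Birc3 (5.87).

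Among the subunits, Rela encodes p65, the main activating partner of the classical pathway. Its level was 8.68, 9.12, 9.38, 9.32 and 8.04 in control replicates 1 to 5 and 9.39, 9.54, 9.34, 9.02 and 9.15 in BA replicates 1 to 5. The 5 BA arrays lay close together, with a range of 0.52, whereas the control arrays spread over 1.34, with control replicate 5 at the low end. The difference was 0.38 ± 0.24 (SE), with a 95% confidence interval from -0.16 to 0.92 (adjusted p = 0.587, limma), and it was 0.16 without control replicate 5 and 0.59 with the neutrophil marker mean as a covariate.

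Nfkb2 encodes p100, the precursor of p52, which both restrains dimers and serves the alternative pathway. The control values were 6.77, 7.28, 6.72, 6.94 and 6.74, and the BA values were 7.09, 7.79, 7.06, 6.85 and 7.09. BA replicate 2 was the highest of all 10 arrays and control replicate 2 the next, so the groups overlapped. The difference was 0.29 ± 0.18 (interval -0.12 to 0.69, adjusted p = 0.586, limma), and it was 0.13 without BA replicate 2. Relb, the partner of p52, was at 5.68, 6.14, 5.81, 5.93 and 5.97 in control cells and at 5.97, 6.11, 5.83, 5.84 and 5.63 in BA cells. These ranges all but coincide. The difference of -0.03 ± 0.12 had an interval of -0.30 to 0.24. The probe set is dim, with a mean of 5.89, and its interval covers the spread between arrays only. Its sign was not stable: it was 0.03 without control replicate 2 or without BA replicate 5, and 0.01 with a blood cell marker covariate.

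Nfkbia encodes IkB-alpha, the inhibitor that is destroyed and remade in each round of signalling. Its values were 8.60, 9.21, 7.93, 8.08 and 8.56 on the control arrays and 8.46, 9.19, 9.06, 8.02 and 9.11 on the BA arrays. Both groups spread over more than a log2 unit, with ranges of 1.28 and 1.17, and the highest value was that of a control mouse. The difference was 0.29 ± 0.29, or 1.22-fold with an interval of 0.784 to 1.91 (adjusted p = 0.704, limma), so the interval holds both a fall and a rise. Leaving out control replicate 3 gave 0.16, leaving out BA replicate 2 or control replicate 4 gave 0.19, and leaving out BA replicate 4 or control replicate 2 gave 0.48. It was 0.17 and 0.18 with the pan-haematopoietic and neutrophil covariates.

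Nfkbie encodes IkB-epsilon, a slower inhibitor whose induction damps oscillations of the pathway. It stood at 6.26, 5.97, 6.15, 5.57 and 5.80 in control cells and at 5.36, 5.50, 5.80, 5.35 and 5.90 in BA cells. All 5 BA values lay below the control mean of 5.95 ± 0.28 (SD, n = 5), and 3 of them lay below every control value. The difference was -0.37 ± 0.16 (interval -0.73 to -0.01), with an unadjusted p of 0.0465 and an adjusted p of 0.526 (limma), and an exact permutation test over all splits of the arrays gave p = 0.0635 (two-sided). The gene is dim, with a mean of 5.77 over all arrays, and its unadjusted p stayed under 0.05 in 6 of the 20 alternative settings that can move it.

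Nfkbiz encodes IkB-zeta, a nuclear IkB that is needed for a second wave of targets such as Lcn2 and Il6. Its values were 10.29, 9.84, 9.44, 9.77 and 10.01 in control cells and 10.29, 10.16, 10.49, 10.18 and 10.53 in BA cells. Control replicate 1 reached the BA range, and the other 4 control arrays lay below all BA arrays. The difference was 0.46 ± 0.16, or 1.38-fold (fold interval 1.08 to 1.75), with an unadjusted p of 0.0143 and an adjusted p of 0.482 (limma) and p = 0.0317 in the exact permutation test (two-sided, n = 5 per group). The unadjusted p was under 0.05 with any 1 array left out (0.00289 to 0.0359, limma) and in 20 of the 21 alternative settings that can move it. The exception was the mean of the neutrophil markers as a covariate. It gave a difference of 0.38, with an adjusted p of 0.728 and an unadjusted p of 0.067 (limma). Without control replicate 1 the difference was 0.57 and the groups were fully apart (adjusted p = 0.516, limma). That array alone of the controls reached the BA range, so leaving it out had to raise the difference and set the groups apart.

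Bcl3 is a nuclear IkB that works with p50 or p52 dimers. It was at 7.05, 7.48, 6.89, 7.09 and 7.63 in control cells and at 7.67, 7.36, 6.91, 8.10 and 7.30 in BA cells. BA replicate 4 was the highest of all 10 arrays, and the other BA values lay within or just above the control range. The difference was 0.24 ± 0.22 (adjusted p = 0.689, limma), and it was 0.08 without BA replicate 4, 0.16 without control replicate 3, 0.38 without BA replicate 3 and 0.05 with the neutrophil covariate.

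Of the feedback genes, Tnfaip3 encodes A20, a ubiquitin-editing enzyme that shuts signalling down. The control values were 7.21, 6.72, 6.32, 6.35 and 6.75, and the BA values were 6.38, 6.82, 7.67, 6.49 and 7.65. BA replicates 3 and 5 stood almost together above every control array, and the other 3 BA arrays lay within the control range. The difference was 0.33 ± 0.29 (interval -0.31 to 0.98, adjusted p = 0.668, limma), and leaving out BA replicate 3 or BA replicate 5 each gave 0.17, and the pan-haematopoietic covariate gave 0.18.

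Birc3 encodes cIAP2, a ubiquitin ligase of the tumour necrosis factor receptor complex that also protects cells from death. Its values were 7.87, 7.31, 8.17, 7.73 and 5.87 in control cells and 8.45, 7.55, 8.55, 7.36 and 8.45 in BA cells. BA replicates 1, 3 and 5 exceeded every control array, BA replicates 2 and 4 lay among them, and control replicate 5 was far below the rest. The difference of 0.68 ± 0.43, or 1.60-fold (fold interval 0.834 to 3.09), was the largest mean difference of the 9 members as measured and did not pass (adjusted p = 0.584, limma). Without control replicate 5 it was 0.30.

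**Figure D2:**
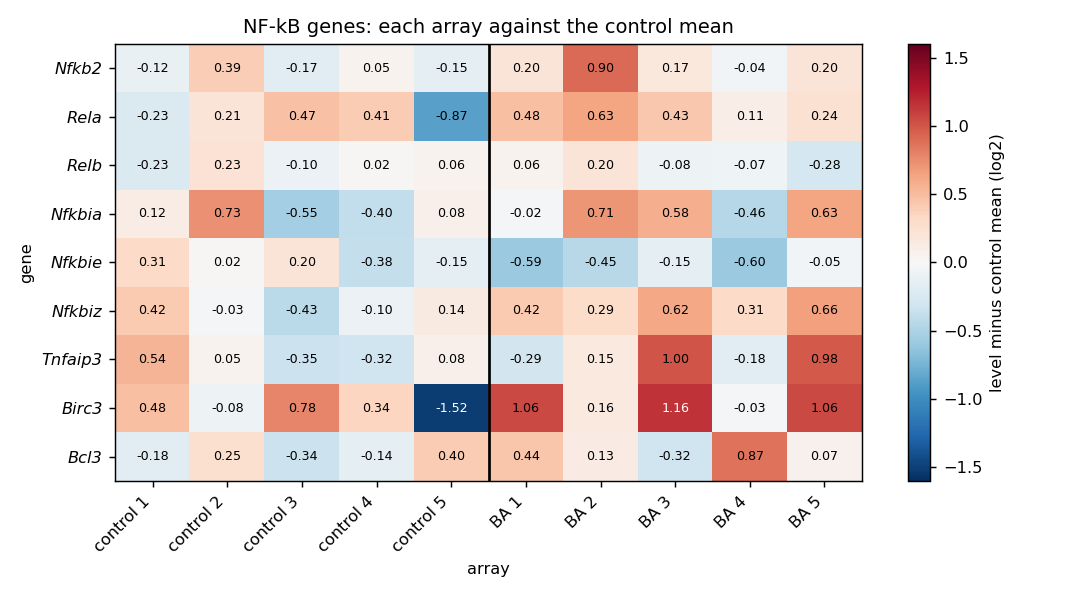
Level of each measured NF-kB gene (rows) on each array (columns) minus the mean of the 5 control arrays, in log2 units, with red above and blue below that mean. BA replicates 3 and 5 are high for Nfkbia, Nfkbiz, Tnfaip3 and Birc3, and BA replicate 4 is near or below the control mean for most genes but is highest for Bcl3 (0.87).

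The BA mice differed among themselves. Taken over the 9 members, the mean deviation from the control mean was 0.20, 0.30, 0.38, -0.01 and 0.39 on BA replicates 1 to 5 and between -0.21 and 0.20 on the control arrays. BA replicate 4 thus lay at the control level, with 6 of 9 members below the control mean, while the other BA arrays had 6 to 8 of 9 above it. Control replicate 2 had 7 of 9 above it, more than BA replicates 1 and 3 with 6 each. The members' median deviations were 0.20, 0.20, 0.43, -0.04 and 0.24 on BA replicates 1 to 5 and between -0.17 and 0.21 on the control arrays. By the median, BA replicates 1 and 2 thus lay within the control range. Without BA replicate 4 the members' median difference was 0.45 in place of 0.29, and 0 of 9 passed; the array was noted for its low values, so leaving it out had to raise the median. The order of arrays was not the same for each gene. BA replicate 2 was high for Nfkb2 and Nfkbia and near the control mean for Birc3, BA replicate 1 was high for Birc3 and below the control mean for Tnfaip3, and Bcl3 was lowest in BA cells on replicate 3, where Tnfaip3 was highest. Over 30 other textbook NF-kB targets the mean deviation was 0.85, 0.96, 1.21, 0.05 and 1.20 on BA replicates 1 to 5 and between -0.32 and 0.25 on the control arrays, so BA replicate 4 stood at the control level there too. The median deviations of the same 30 genes were smaller, at 0.38, 0.37, 0.34, -0.10 and 0.74 on BA replicates 1 to 5 and between -0.21 and 0.09 on the control arrays.

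Outside the members, the 6 genes whose level followed the members' mean z-score most closely over the 10 arrays were Acsl4 (r = 0.95), Il6 (0.94), Myc (0.91), Abl2 (0.90), Gsr (0.90) and Taf4b (0.89). They are the highest of 17056 candidates, and with group means removed the r values were 0.81 to 0.92. Il6, the interleukin-6 gene, is a textbook NF-kB target, and its own difference was 1.80 ± 0.77 (adjusted p = 0.509, limma). The value of r ranks genes here and was not tested.

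Other genes of the pathway were taken from 7 lists with 107 entries, of which 99 were measured. The kinase genes Chuk, Irak4, Ripk1 and Ripk2 were not matched to a probe set with 1 symbol. Nor were Traf3, Tnfsf12 and the receptor genes Il1r1 and Il1rl1, so no count below covers these genes. None of the 99 passed over all genes. At an unadjusted p under 0.05 (limma) 20 were higher in BA cells and 1 was lower, beside 4.13% and 5.27% of all genes, and 3 had groups fully apart, beside 1.67%. The textbook targets, fixed with results of these data known, held 10 of the 20, so these counts are no test of the pathway. The count of 20 was 12 with the pan-haematopoietic and 13 with the neutrophil marker mean as a covariate, beside 3.61% and 3.65% of all genes. Leaving out BA replicate 3 gave 13 (3.13% of all genes). Leaving out BA replicate 5 or control replicate 3 gave 14 (3.6% of all genes in each). The highest count with an array left out was 25. Without BA replicate 4 the targets Saa3, Lcn2 and Mmp3 passed over all genes (adjusted p = 5.6e-08, 0.00496 and 0.00367, limma), as did 13 of all genes against 1 with all arrays. That array was at the control level for Saa3 (4.80) and Mmp3 (5.88), so leaving it out selects on the outcome and is no support for these calls.

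**Figure D3:**
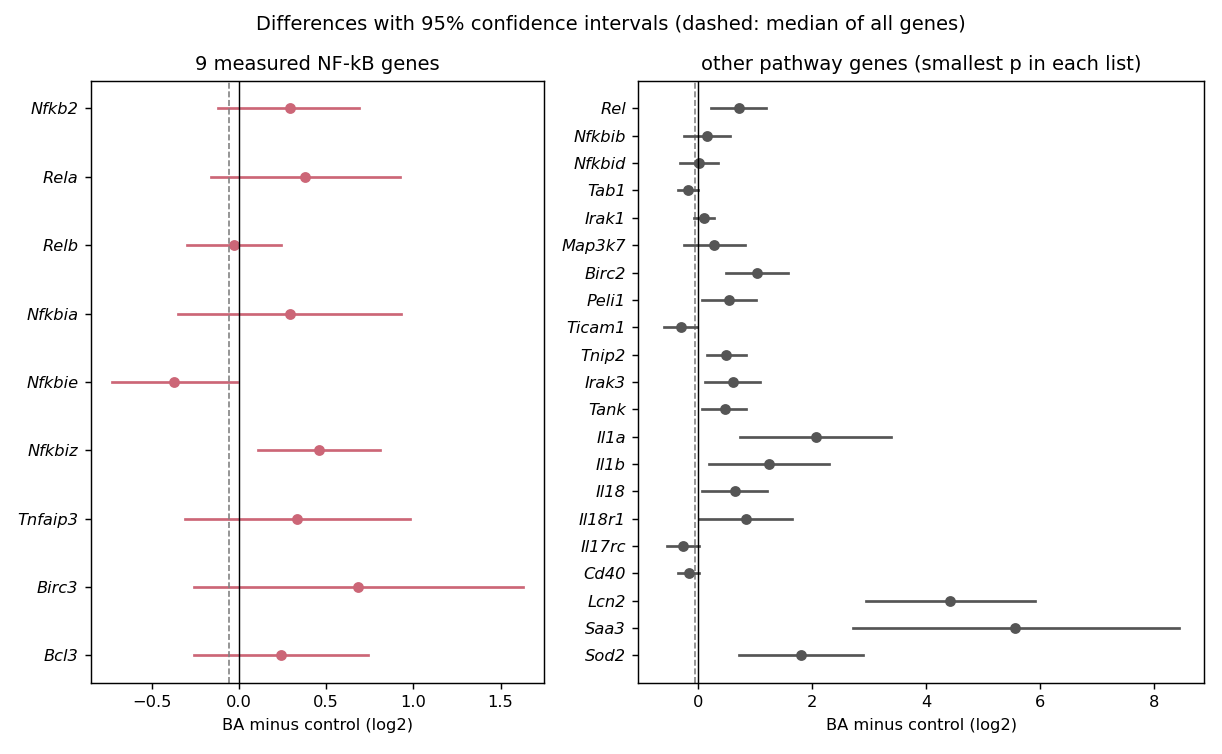
Difference between BA and control means (log2, horizontal axis) with 95% confidence intervals from limma for the 9 measured NF-kB genes (left) and for the pathway genes with the smallest p of each list (right), on separate horizontal scales. The dashed line is the median of all genes (-0.06); of the members, the intervals of Nfkbiz and Nfkbie alone leave out 0.

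The remaining subunit and IkB genes were measured at 1 probe set each. Rel, which encodes c-Rel, was at 10.25, 9.46, 9.13, 10.24 and 9.72 in control cells and at 10.53, 10.35, 10.29, 10.46 and 10.72 in BA cells. All 5 BA arrays lay above all 5 control arrays, by a gap that is small beside the control spread. The difference was 0.71 ± 0.21, or 1.64-fold (adjusted p = 0.455, limma), with p = 0.00794 in the exact permutation test, two-sided, the smallest that 5 arrays against 5 allow. It was 0.71 without BA replicate 4 and 0.65 without BA replicate 5. Nfkbib, the gene of IkB-beta, differed by 0.15 ± 0.18 (0.04 to 0.26 with arrays left out in turn) and Nfkbid, that of a nuclear IkB, by 0.01 ± 0.15.

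Birc2 encodes cIAP1, the closest relative of Birc3 and its direct neighbour on chromosome 9. It was at 7.28, 7.57, 6.60, 8.11 and 7.45 in control cells and at 8.62, 8.49, 8.46, 8.59 and 7.99 in BA cells. BA replicates 1 to 4 exceeded every control array and BA replicate 5 lay below 1 of them. The difference was 1.03 ± 0.25, or 2.04-fold (adjusted p = 0.384, limma), and a second probe set of the gene differed by 0.46. The neighbours did not follow each other: BA replicate 5 was the lowest BA array for Birc2 and among the highest for Birc3. Whether RNA of one gene binds the other's probes was not tested.

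Of the 15 adaptors and ubiquitin ligases measured, 2 were higher (4.13% of all genes) and 1 lower (5.27%) at an unadjusted p under 0.05 (limma). Besides Birc2 these were Peli1, a ligase of the interleukin-1 receptor pathway (0.54 ± 0.22), and Ticam1, the adaptor TRIF of Toll-like receptors (-0.31 ± 0.13, and -0.20 with the neutrophil covariate). Of the 12 kinase genes measured, 0 had an unadjusted p under 0.05 (limma), beside 9.4% of all genes, and the median difference was 0.05. Tab1, a partner of the kinase TAK1, had its groups fully apart with a difference of -0.18 ± 0.08, while Map3k7, TAK1 itself, differed by 0.28 ± 0.25 (0.09 without control replicate 3) and Irak1 by 0.10 ± 0.08.

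Among 15 other negative regulators 10 had a higher mean in BA cells, and 3 of them an unadjusted p under 0.05 (limma), beside 4.13% of all genes. Tnip2, which works with A20, was at 7.62, 7.43, 8.06, 7.34 and 7.24 in control and at 7.89, 8.05, 8.27, 8.02 and 7.93 in BA cells, a difference of 0.49 ± 0.16. Control replicate 3 alone reached the BA range. Irak3, the inhibitory kinase IRAK-M, differed by 0.61 ± 0.22 and Tank, a TRAF-binding inhibitor, by 0.46 ± 0.17. On BA replicate 4 both lay within the control range, at 6.37 and 6.59, and below all other BA arrays. The adjusted p-values of the 3 genes were 0.471, 0.484 and 0.497 (limma).

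Of 12 ligands measured, 3 were higher in BA cells at an unadjusted p under 0.05 (limma), beside 4.13% of all genes, and 0 were lower. Il1a was at 4.06 to 4.49 on the control arrays and at 4.26, 6.71, 6.23, 5.69 and 8.35 on the BA arrays, a difference of 2.06 ± 0.59. Il1b differed by 1.24 ± 0.48 and Il18 by 0.64 ± 0.26, both highest on BA replicate 5, whereas Tnf differed by 0.23 ± 0.26. The difference of Il1b was 0.80 without BA replicate 5, the array highest in blood cell markers, and 0.73 and 0.51 with the pan-haematopoietic and neutrophil covariates. Without BA replicate 5 that of Il1a was 1.53 and that of Il18 0.44. With the same covariates Il1a differed by 1.64 and 1.77, and Il18 by 0.49 and 0.52. Both Il1a and Il18 are dim, with means of 5.22 and 4.64 over all arrays. The adjusted p-values of Il1a, Il1b and Il18 were 0.452, 0.500 and 0.507 (limma). Of 12 receptors the median difference was -0.08. Il18r1 differed by 0.83 ± 0.37, while Il17rc (-0.27 ± 0.13) and Cd40 (-0.17 ± 0.09) had small differences of the other sign. Without BA replicate 5 the difference of Il18r1 was 0.47 and that of Il17rc -0.16.

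The 30 other textbook targets had a median difference of 0.39, with 22 higher and 8 lower, beside 37.7% of all genes with a higher mean and 49.6% of those above the median level, where 24 of the 30 lie. The adhesion gene Vcam1 (-1.15 ± 0.52), the transcription factor gene Irf1 (-0.95 ± 0.50) and the growth factor gene Csf1 (-0.76 ± 0.39) had lower means in BA cells. Irf1 has 2 probe sets, of which the brighter was used. Csf1 was at 7.99, 7.86, 7.04, 6.01 and 5.95 in control cells and at 6.01 to 6.40 in BA cells, so control replicates 4 and 5 were not higher. At an unadjusted p under 0.05 (limma) 0 of the 30 were lower, beside 5.27% of all genes. Lcn2, an iron-scavenging lipocalin, differed by 4.43 ± 0.67, the acute-phase gene Saa3 by 5.57 ± 1.29 and the mitochondrial superoxide dismutase gene Sod2 by 1.81 ± 0.50 (adjusted p = 0.205, 0.384 and 0.414, limma). Lcn2, Saa3 and Sod2 are named as the 3 targets with the smallest p, so they do not stand for all 30. In the same samples Nfkbia and the feedback genes Tnfaip3 and Birc3 differed by 0.29, 0.33 and 0.68. These are values of separate probe sets, and whether targets and feedback genes differ in their change was not tested.

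**Figure D4:**
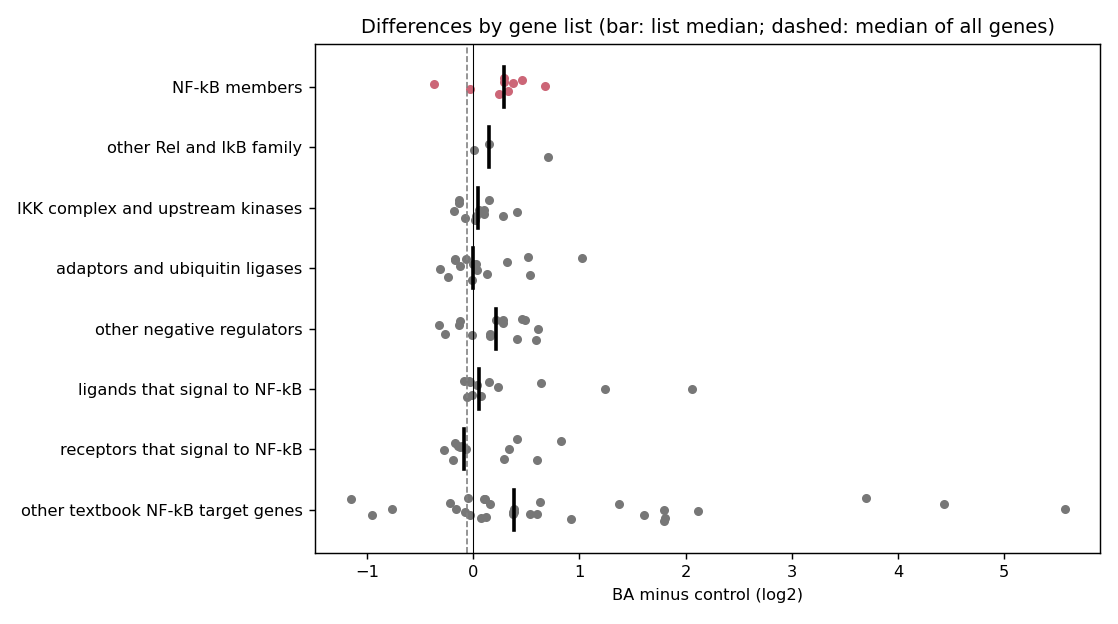
Difference between BA and control means (log2, horizontal axis) of every measured gene of the NF-kB members (red) and of 7 pathway lists (gray). Each point is a gene, spread vertically for legibility, the black bar is the list median (0.29 for the members, 0.39 for the textbook targets), and the dashed line is the median of all genes.

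The sorted fraction carried skeletal transcripts of more than one kind, and markers of blood cells varied between arrays. Ibsp, a bone matrix gene, lay between 12.59 and 12.85, and Acan, a cartilage gene, between 11.14 and 11.54 on all 10 arrays, while the bone collagen gene Col1a1 averaged 10.65 in control and 9.40 in BA cells and Alpl, an early osteoblast enzyme gene, differed by 0.47. Of the 6 measured osteoblast markers 2 were higher and 4 lower in BA cells. At an unadjusted p under 0.05 (limma) 3 were lower, beside 5.27% of all genes. The mean level of the 6 was 9.39 to 10.11 on control and 8.82 to 9.77 on BA arrays. The 7 chondrocyte markers, 7 of 7 higher, had mean levels of 10.35 to 11.14 and 10.76 to 11.26. Those of the 7 endothelial markers were 5.21 to 5.71 and 5.19 to 5.35. Runx2, Bglap and Spp1 were not matched to a probe set with 1 symbol. Pan-haematopoietic markers, 9 of 12 of them higher in BA cells, had a mean level of 5.75 to 6.65 on the control arrays and 5.92 to 7.82 on the BA arrays, the highest on BA replicate 5, where Ptprc (CD45) was at 9.29 against 5.54 to 5.90 elsewhere. Neutrophil markers, 11 of 11 higher, had mean levels of 6.43 to 8.46 and 7.32 to 10.04, and macrophage markers, 7 of 9 higher, 5.72 to 6.09 and 5.79 to 6.99. On BA replicate 4, where the members were low, the neutrophil mean was 8.71, above all control arrays. On BA replicate 5 the neutrophil mean was highest, at 10.04, and so was the members' mean deviation, at 0.39. On BA replicates 3 and 2 the members' mean deviation was 0.38 and 0.30, with neutrophil means of 7.61 and 7.32, within the control range. Whether the members follow the neutrophil markers was not tested. With the pan-haematopoietic mean as a covariate the members' median difference was 0.21, with the neutrophil mean it was 0.23, and without BA replicate 5 it was 0.28. Xist, which coats the silenced X of female cells, was at 9.81 or above on control replicates 4 and 5 and BA replicates 2, 4 and 5 and at 5.08 or below on the other arrays, and the labels give no sex. With its level as a covariate the members' median was 0.32. Pericyte and smooth muscle markers were lower for 7 of 7 genes (7.59 to 8.67 on control and 6.48 to 7.49 on BA arrays), with a median difference of -0.92. At an unadjusted p under 0.05 (limma) 4 of these 7 were lower, beside 5.27% of all genes. For 2 of them all BA arrays lay below all control arrays, beside 1.1% of all genes. The part of these markers in the members' differences was not tested. Fewer cells of a type and less RNA per cell cannot be told apart in such samples.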

How the data were processed

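RNA of sorted OBCs from 5 control and 5 BA mice was measured on 1 array per mouse. The deposited values of 35557 probe sets were normalized by the authors with GCRMA, per the submitters' processing notes, and are taken as log2 because they span 1.21 to 13.7. The annotation gave 1 symbol to 21789 probe sets, several to 1621 and none to 12147. No scanner files were used, so signal over background is unknown, and precision rests on 5 arrays a group. Groups and replicate numbers follow the labels. Mice are the replicates.

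BA and control were compared over all 19938 genes with limma 3.58.1 in R 4.3.3 (lmFit, eBayes, two-sided, Benjamini-Hochberg, threshold 0.05), tested on simulated data. Intervals are 95%. Exact permutation tests used all splits. The alternatives were a replicate block, quantile normalization, median centring, a filter on dim genes, trend and robust settings, array weights, the mean of probe sets, covariates (pan-haematopoietic, Xist and, added after seeing the data, neutrophil), exact and plain equal-variance tests, a threshold of 0.10 and leaving out each array. The members and lists were chosen with earlier results of these data known. Named were all members, the 3 genes with the smallest p of each pathway list, marker lists by their mean level, and the 6 genes most like the members' mean z-score. Tnf, Mmp3, Vcam1, Irf1, Csf1 and the markers named singly were added after their values were seen.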

Additional observations from a re-analysis of the deposited data

Results flagged for a closer look

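Within each group of 5 arrays the values of the 9 members and of 21 other named pathway genes were searched for a sample far from the rest (Dixon's criterion, gap over range above 0.71). Of 60 groups 5 held such a sample, and chance gives about 1 in 20. Nfkb2 was at 7.79 on BA replicate 2, with the other BA arrays between 6.85 and 7.09. On BA replicate 4, Saa3 was at 4.80 against 11.88 to 12.27 on the other BA arrays, Irak3 at 6.37 against 7.23 to 7.57, and Tab1 at 6.00 against 6.18 to 6.24. Birc2 was at 7.99 on BA replicate 5 against 8.46 to 8.62.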

How the results depend on the processing

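Of the 144 differences from alternatives that can move a member's difference 140 kept their sign, and no member passed over all genes in any setting run. Relb reversed, to 0.01 with the pan-haematopoietic or neutrophil covariate and, with arrays left out in turn, ran from -0.09 to 0.03. Nfkbid reversed to -0.02 with array weights or the Xist covariate, to -0.06 with the pan-haematopoietic and to -0.14 with the neutrophil covariate, and ran from -0.06 to 0.12 with arrays left out. The count of members higher at an unadjusted p under 0.05 (1, limma) was 0 with the neutrophil covariate. The count lower (1, Nfkbie) was 0 with the replicate block, quantile normalization, median centring, array weights or the Xist or neutrophil covariate. It was also 0 with the exact or the plain test, and 0 to 1 with arrays left out. The filter on dim genes removed Nfkbie itself, so the count of 0 there was fixed in advance. Members with groups fully apart were 0, and 0 to 1 with arrays left out (Nfkbiz without control replicate 1).

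Of the 99 pathway genes, 20 were higher at an unadjusted p under 0.05 (limma), beside 4.13% of all genes. The count was 12 with the pan-haematopoietic and 13 with the neutrophil covariate, beside 3.61% and 3.65% of all genes. With arrays left out it was 13 to 25, the lowest without BA replicate 3, beside 3.13% to 5.02% of all genes. Pathway genes lower numbered 1 (5.27% of all genes), against 0 with the pan-haematopoietic or neutrophil covariate (3.49% and 3.2%). They numbered 2 with the replicate block, trend and robust settings or the mean of probe sets (3.75%, 5.78% and 5.24%). The count was 3 with quantile normalization, array weights or the plain test (5.54%, 6.06% and 6.47%) and 4 with the exact test (6.25%). With arrays left out it was 0 to 4 (3.39% to 7.58%). Pathway genes with groups fully apart were 3, beside 1.67% of all genes, and 1 with quantile normalization. With arrays left out they were 3 to 14, the highest without BA replicate 4. Groups with an array left out come apart more easily, and the share of all genes was not counted in these settings. Leaving out BA replicate 4 also selects on the outcome, so the count of 14 is no support. Pathway genes past the threshold over all genes numbered 0 to 3 with arrays left out. All genes passing numbered 13 without BA replicate 4 against 1 with all arrays. The cause was not tested.

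Replicate numbers did not pair the samples (correlations of same-numbered arrays -0.10 to 0.11), and the replicate block changed no call of a member over all genes and left the members' median at 0.29. The median of all genes lay between -0.08 and 0.00 in every setting. Signal over background is unknown, and Relb and Nfkbie lie below the median level of all genes.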
